A study of Mus musculus with 6 samples.

Results

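Transcripts of 9 genes of translation elongation were followed in cultured mouse cortical cells after knockdown of Ybx1, an RNA-binding protein that reads 5-methylcytosine in mRNA. The genes are Eef1a1, Eef1a2, Eef1b2, Eef1d and Eef1g of the eEF1 complex, Eef2 and its kinase gene Eef2k, Eef1e1 and Tpt1. They were taken by symbol, and all 9 were among the 17920 genes listed and among the 13669 genes tested. The 3 control libraries (called WT, as in the labels) and 3 knockdown libraries (KD) came from E13.5 cortex, the embryonic day, and were made from mRNA. By the methods of the study, dissociated cortical cells were cultured, infected with lentivirus carrying a short hairpin RNA and selected with puromycin, which kills cells without the virus. A control hairpin is described there, but that the WT libraries carried it is not stated, and the labels give WT as a genotype. The methods call the replicate experiments independent. Which Ybx1 hairpin was used, the strain and the embryos behind each library are not given in the sources used here.

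Each amino acid is added to a growing protein in a cycle run by elongation factors. eEF1A, made from Eef1a1 or, in neurons and muscle, from Eef1a2, carries aminoacyl-tRNA to the ribosome as a GTPase. The eEF1B complex returns eEF1A to its GTP form. Its exchange subunits are the products of Eef1b2 and Eef1d, and the product of Eef1g is its scaffold. eEF2 moves the ribosome along the mRNA and is held back when eEF2 kinase phosphorylates it. Eef1e1 has a name of the same series, but its product (AIMP3) sits in the complex of tRNA synthetases. Tpt1 encodes TCTP, a protein that binds elongation factors. The mRNAs of many of these genes begin with a pyrimidine tract that places their translation under growth control. Eef1g is one of the transcripts that the study picked as targets of Ybx1, partly on these samples, so its fall here is not independent evidence. The data were used to ask whether the subunits of eEF1 moved together.

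Library totals lay between 16294635 and 16497505 estimated counts. Levels are given as counts per 1000000 after TMM scaling (CPM), or, where named, as transcripts scaled for length (TPM). In KD the Ybx1 transcript averaged 116 ± 36.8 CPM, against 629 ± 21 CPM for WT (SD, n = 3). The study calls the cultured cells neural stem cells, and markers of progenitors and of neurons were both well counted, with summed levels of 7 neuron markers between 6222 and 6639 CPM in WT and between 5734 and 6473 CPM in KD. The 7 progenitor markers summed to between 1099 and 1139 CPM in WT and between 1150 and 1356 CPM in KD. The 3 intermediate progenitor markers summed to between 40.6 and 48.2 CPM in WT and between 74.7 and 104.7 CPM in KD. Past an adjusted p of 0.05 in edgeR, all 3 intermediate progenitor markers and 2 of the 7 progenitor markers were higher and 0 were lower. Over all genes tested, 12% were higher and 11.9% lower. Btg2, an intermediate progenitor marker, lay near the threshold (adjusted p = 0.0473). Markers of oligodendrocyte lineage cells (350 to 491 CPM in WT, 304 to 399 CPM in KD) and astrocytes (75.6 to 87.5 CPM and 72.3 to 85.2 CPM) were present at lower levels. Those of microglia, endothelial cells, mesenchymal cells with pericytes, and red cells summed to at most 14.4 CPM in any library. Tmem119, Cldn5, Cdh5 and the red cell genes were at or near 0. Past the same threshold, 1 oligodendrocyte lineage marker was lower, and 1 marker of mesenchymal cells with pericytes was higher. No tested marker of astrocytes or endothelial cells passed. The part of these differences in makeup in the values that follow was not tested.

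Sequences of the paired eEF1A genes are shown first, because their changes differed and because a read must tell them apart to be counted. Eef1a1 lies on chromosome 9 and Eef1a2 on chromosome 2. Eef1a1 spans 78478453 to 78481724 in RefSeq (GRCm38.p6), on the minus strand. Their coding sequences in GENCODE M21 (build GRCm38) hold 1389 and 1392 bases with the stop codon, of which 80.1% of the 1389 aligned bases were identical. The first 90 coding bases of each are given from the start codon, with the 15 bases that differ in capitals.

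Eef1a1: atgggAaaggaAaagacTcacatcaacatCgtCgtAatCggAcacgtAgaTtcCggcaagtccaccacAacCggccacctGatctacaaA

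Eef1a2: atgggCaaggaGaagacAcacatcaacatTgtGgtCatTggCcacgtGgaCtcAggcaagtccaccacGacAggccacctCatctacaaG

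The longest stretch without a difference was 23 bases over the whole coding sequence. Of the runs of 50 bases in the GENCODE transcript of Eef1a2 (2084 bases), 0% occurred in the transcript of any other gene. The deposited Eef1a2 values rest on a length of 7684 bases, and sequence beyond the GENCODE transcript was not checked. The gene spans 181141758 to 181157015 of chromosome 2 in RefSeq, on the minus strand, and no other annotated gene overlaps it. For Eef1a1 the shared portion was 59.2%, with 20 other genes, none of which was in the deposited table. Only 1 of the 54 values of the members, the Eef1a1 count of KD replicate 2, was not a whole number.

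Copies of other members are also annotated. In Eef1g (chromosome 19, 8967041 to 8978180, plus strand) 64.3% of the 50-base runs occurred elsewhere, with 58.4% found in Gm4366. The figure was 42% for Tpt1, with Tpt1-ps3 holding all of it, 17.3% for Eef1d, 7.86% for Eef2, 5.98% for Eef1b2, 0.214% for Eef2k and 0% for Eef1e1. Some of this is shared with genes that the deposited table lists. For Eef1d, 10.1% of the runs occurred in Naprt. Eef1b2 shared runs with Paip2b and Vps53, and Eef2k with 168 listed genes. How reads of such stretches were assigned was not tested. Reads of a copy that the table does not list could have been counted to the parent gene, so the levels of Eef1g, Eef1a1 and Tpt1 are the less certain ones. Whether copies contributed was not tested. In RefSeq the others lie on chromosome 1 from 63176831 to 63180486 (Eef1b2, plus strand), chromosome 15 from 75894796 to 75909784 (Eef1d, minus strand), chromosome 13 from 38645691 to 38659028 (Eef1e1, minus strand), chromosome 10 from 81176631 to 81182509 (Eef2, plus strand), chromosome 7 from 120842642 to 120907219 (Eef2k, plus strand) and chromosome 14 from 75845256 to 75848303 (Tpt1, plus strand). The span of Eef1d overlaps Tigd5 and that of Eef1b2 overlaps Ndufs1, both on the opposite strand, as Gm15774 does to Eef2k, and whether the counting used strand is not given in the sources used here.

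Of the 9 transcripts, 5 decreased in KD past an adjusted p of 0.05 in edgeR and 0 increased, with 0 increased in any of the 17 alternatives. Over all genes tested, 11.9% were lower, 12% were higher and 24% passed in either direction. With the replicate number as a block, 6 of the 9 were lower, against 18.1% of all genes lower and 36.6% in either direction. The members were proposed with results of these data in view, so the count describes them and does not set them apart. Without the block, Eef1a2, Eef1g and Eef1b2 fell the most and Eef1a1 and Tpt1 less. Eef1e1, Eef2, Eef1d and Eef2k did not pass, and the block added Eef1e1. The median log2 fold change of the 9 was -0.17 beside -0.0013 over all genes. Within each member, the SD between libraries of a group was at most 14.4% of the mean, that of Eef2k in WT. All KD libraries lay below all WT libraries for 8 members, Eef2k being the exception, a pattern that 20.6% of the genes tested showed.

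**Figure D1:**
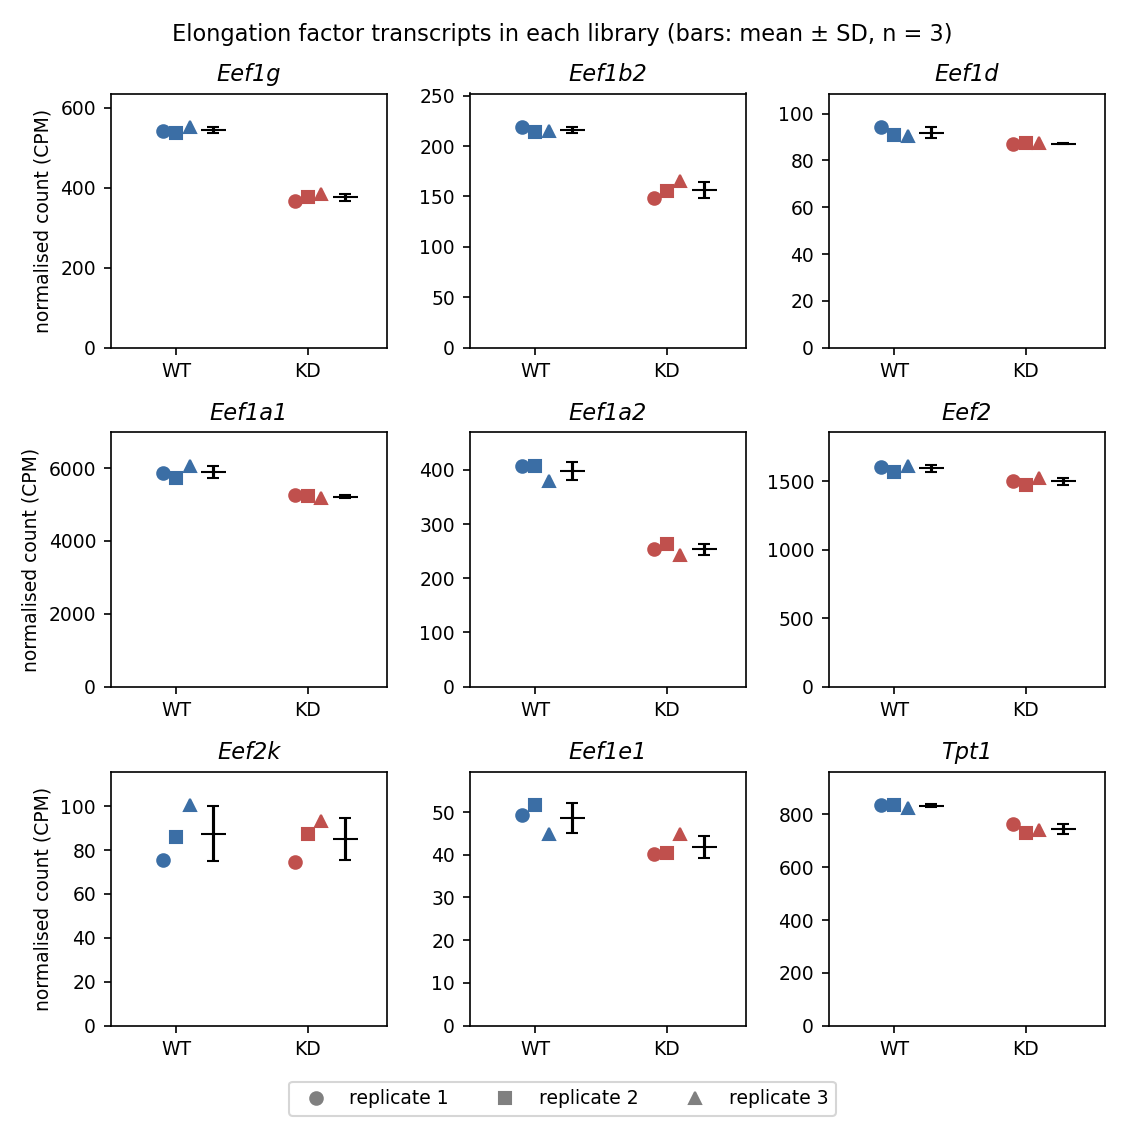
Normalised counts (CPM, vertical axis from 0) of the 9 transcripts in the 3 WT (blue) and 3 KD (red) libraries, with the replicate number given by the marker shape and bars for mean ± SD (n = 3). Eef1g, Eef1b2 and Eef1a2 show a wide gap between the groups, Eef1d and Eef2 a narrow one, and Eef2k none.

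The scaffold subunit was described first. Eef1g had 542, 536 and 552 CPM in WT replicates 1, 2 and 3 and 367, 376 and 385 CPM in KD replicates 1, 2 and 3. The WT values lay close together and far above all KD values. Its log2 fold change was -0.53 (SE 0.04, adjusted p = 2.6e-04), a change of -30.8%, and 4.1% of all genes tested had a lower log2 fold change. Between libraries of the same number it changed by -32.3%, -29.8% and -30.3%, so the pairs differed little.

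Eef1b2, the smaller exchange subunit, moved by a similar amount. It had 219, 214 and 215 CPM in WT and 149, 156 and 165 CPM in KD. No library of one group reached the other, and the KD libraries were more spread out (SD 8.04 CPM) than the WT libraries (SD 2.94 CPM). The log2 fold change was -0.46 (SE 0.05, adjusted p = 7.3e-04), a change of -27.5%. Replicate pairs 1, 2 and 3 gave -32.1%, -27.1% and -23.3%.

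Eef1d, which encodes the other exchange subunit, did not pass. Its WT libraries were at 94.4, 90.9 and 90.3 CPM and its KD libraries at 87.0, 87.3 and 87.4 CPM. The groups did not overlap, but the gap was narrow, and the KD libraries differed by less than 1 CPM. Its log2 fold change was -0.08 (SE 0.05, adjusted p = 0.27). On TPM it was 0.01, with 156, 144 and 153 TPM in WT and 152, 154 and 149 TPM in KD, and there the groups overlapped. All these values are of the whole Eef1d gene. The sequence work here used its short form, the eEF1 subunit, and left out a longer brain form. The part of each form in the counts was not tested.

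The eEF1A genes differed in size of change. Eef1a1, by far the most abundant member, had 5868, 5734 and 6065 CPM in WT and 5252, 5224 and 5173 CPM in KD. All KD libraries were lower, by a small margin next to the level of the transcript. Its log2 fold change was -0.17 (SE 0.04, adjusted p = 0.0112), a change of -11.4%, and on log2(TPM + 1) with limma it was -0.12 (adjusted p = 0.185), which did not pass. Among its 17 alternatives the adjusted p lay between 0.00175 and 0.185.

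Eef1a2 showed the lowest log2 fold change of the 9. It had 406, 408 and 379 CPM in WT and 253, 264 and 243 CPM in KD. Every KD library was far below every WT library, and the lowest value in each group was that of replicate 3. The log2 fold change was -0.65 (SE 0.05, adjusted p = 2.6e-04), a change of -36.3%, and 2.5% of all genes lay below it. By pair it changed by -37.6%, -35.3% and -36.0%. Eef1a2 is a gene of differentiated neurons, and of the 7 neuron markers 2 fell (Syt1, -0.36, adjusted p = 0.0101, and Stmn2, -0.20, adjusted p = 0.0466), 1 rose (Dcx, 0.29, adjusted p = 0.00518) and 4 did not pass. In bulk RNA, fewer cells of a type and less RNA per cell cannot be told apart, and the part of neuron content in the value of Eef1a2 was not tested.

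**Figure D2:**
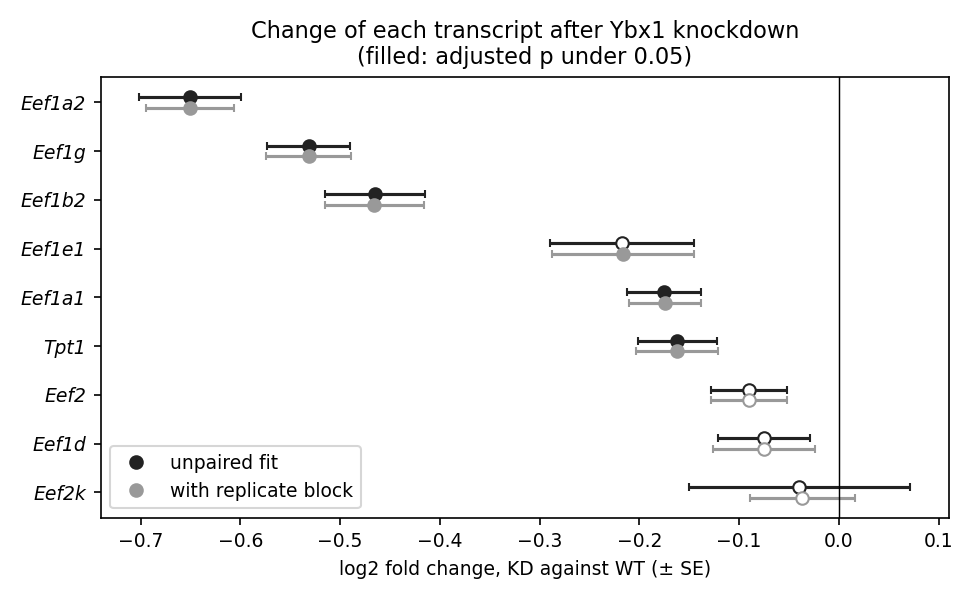
Log2 fold changes of KD against WT (horizontal axis, bars ± SE) for the 9 transcripts from edgeR, in the unpaired fit (black) and with the replicate number as a block (grey), filled where the adjusted p was under 0.05. Eef1a2, Eef1g and Eef1b2 stand near -0.5 or below, and Eef1e1 is filled only with the block.

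eEF2, the translocation factor, and its kinase were measured in the same libraries. Eef2 had 1605, 1565 and 1612 CPM in WT and 1504, 1469 and 1519 CPM in KD. The KD libraries were all lower, each by around 6% of its WT counterpart. The log2 fold change of -0.09 (SE 0.04, adjusted p = 0.118) did not pass, nor did it with the block (adjusted p = 0.0781).

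Eef2k had 75.6, 86.2 and 100.7 CPM in WT and 74.7, 87.2 and 93.4 CPM in KD. Its libraries differed far more between replicate numbers than between groups, with replicate 1 lowest and replicate 3 highest in both. The log2 fold change was -0.04 (SE 0.11, adjusted p = 0.827) in the unpaired fit. There it changed sign when WT replicate 3 (0.07) or KD replicate 1 (0.05) was left out. With the replicate number as a block it was -0.04 (SE 0.05, adjusted p = 0.618).

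Of the genes named beside the eEF1 complex, Tpt1 passed and Eef1e1 did not in the unpaired fit. Tpt1 had 837, 836 and 826 CPM in WT and 763, 728 and 742 CPM in KD. The groups were clearly separate, at a small distance. The log2 fold change was -0.16 (SE 0.04, adjusted p = 0.0198), a change of -10.6%. Leaving out WT replicate 1 gave an adjusted p of 0.0663, WT replicate 2 gave 0.0759 and KD replicate 2 gave 0.0747. Among its 17 alternatives the adjusted p lay between 0.00657 and 0.145.

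Eef1e1 had 49.3, 51.7 and 44.8 CPM in WT and 40.2, 40.5 and 44.8 CPM in KD. WT replicate 3 and KD replicate 3 were nearly equal, whereas the other pairs were well apart. The log2 fold change was -0.22 (SE 0.07, adjusted p = 0.0579). With the replicate number as a block it was -0.22 with an adjusted p of 0.0273, so the call changed. It also passed with upper quartile scaling (adjusted p = 0.0412), with a filter at a mean of 5 CPM (adjusted p = 0.0493) and when WT replicate 3 (adjusted p = 0.0278) or KD replicate 3 (adjusted p = 0.0476) was left out. Its 17 alternatives spanned adjusted p from 0.0273 to 0.191.

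The question of joint movement was then put to the ratios of subunits within a library. The log2 CPM of Eef1g was subtracted from that of every gene in each library, and limma with a trend compared KD with WT. In this test 82% of the genes tested changed relative to Eef1g, and 81.6% of the genes tested were higher relative to it, Eef1g itself having fallen. Eef1d rose relative to Eef1g by 0.46 on the log2 scale (adjusted p = 3.0e-05) and Eef1a1 by 0.36 (adjusted p = 1.5e-04). Eef1b2 (0.07, adjusted p = 0.223) and Eef1a2 (-0.12, adjusted p = 0.0896) did not pass. So 2 of the other 4 subunit transcripts changed by a different amount than Eef1g, a share that is below the background. For Eef1d this is again the value of the whole gene, with its forms not told apart.

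With the replicate block, the change of Eef1a2 relative to Eef1g, -0.12, had an adjusted p of 0.0190, so Eef1a2 then differed as well, where 86% of all genes did. It also passed without WT replicate 3 (-0.16, adjusted p = 0.0283), where 79.1% of all genes differed from Eef1g. Against Eef1a1 as the reference, Eef1g (-0.36, adjusted p = 6.2e-04), Eef1b2 (-0.29, adjusted p = 0.0037) and Eef1a2 (-0.48, adjusted p = 4.7e-04) differed, and Eef1d (0.10, adjusted p = 0.175) did not pass. With that reference 38.6% of all genes differed.

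The same ratios were read on TPM, which divides by length. Eef1d stood at 0.177 of the Eef1g level in WT and 0.249 in KD. The log2 ratios were -2.44, -2.53 and -2.52 in WT and -1.98, -2.01 and -2.04 in KD. All KD libraries were above all WT libraries. Eef1b2 stood at 0.308 of Eef1g in WT and 0.322 in KD, with log2 ratios of -1.67, -1.69 and -1.73 in WT and -1.67, -1.64 and -1.59 in KD, so that the groups almost touched. Between the exchange subunits, the level of Eef1d was 0.575 of that of Eef1b2 in WT and 0.772 in KD. Of the 10 pairs among the 5 subunits, 9 had ratios that did not overlap between the groups. Such ratios were common, since 81.6% of all genes tested did not overlap in their ratio to Eef1g, 77.7% in that to Eef1b2, 39.5% in that to Eef1d and 50% in that to Eef1a1. The count of pairs therefore does not set the subunits apart. The exact permutation test, two-sided, gave p = 0.1 for each of these 9 (adjusted 0.111 over the 10 pairs), the smallest p that 3 against 3 libraries allow. Eef1a2 to Eef1g was the pair that overlapped (exact permutation p = 0.3).

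**Figure D3:**
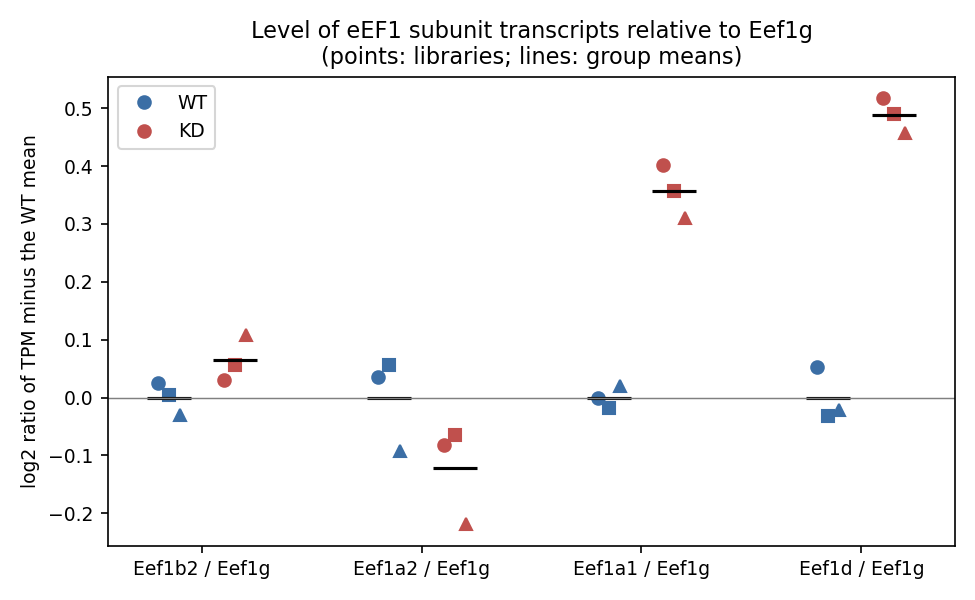
Log2 ratio of TPM of 4 eEF1 subunit transcripts to Eef1g in each library, less the WT mean of that ratio (vertical axis), for WT (blue) and KD (red), with circles, squares and triangles for replicates 1, 2 and 3 and lines for the group means. Eef1b2 and Eef1a2 stay close to 0, whereas Eef1a1 and Eef1d lie 0.36 and 0.49 higher in KD.

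Levels of the transcripts were put in order on TPM. In WT, Eef1a1 was highest at 7821 ± 324 TPM (SD, n = 3), followed by Tpt1 (2758 ± 22.8), Eef2 (1128 ± 31.6), Eef1g (850 ± 24.1), Eef1b2 (262 ± 5.3), Eef1d (151 ± 6.3), Eef1e1 (130 ± 7.6), Eef1a2 (103 ± 3) and Eef2k (28.8 ± 4.4). The order was the same in KD, and no neighbours in it overlapped in either group. Eef1a1 took between 0.568% and 0.598% of all estimated counts in WT libraries and between 0.518% and 0.534% in KD libraries. The 5 eEF1 subunits summed to between 8850 and 9556 TPM in WT and between 8037 and 8318 TPM in KD, most of it Eef1a1.

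The place of Eef1a2 in this order depended on the length used. The effective length behind its deposited values was 7684 bases, where the GENCODE transcript has 2084 bases, a ratio of 3.69. For the other members the ratio lay between 0.291 and 0.919. On the 3′ side the RefSeq span of Eef1a2 runs to 181141758, beyond the GENCODE end at 181147653. Reads of that stretch, where counted, would raise a level taken per kilobase of the shorter transcript, and their part was not tested. Per kilobase of GENCODE transcript, Eef1a2 averaged 191 ± 7.64 CPM over WT libraries and 122 ± 5.06 CPM over KD libraries, above Eef1b2 (111 ± 1.52 and 80.7 ± 4.15) and ranking 5 rather than 8. A fixed length cancels out of the fold change of Eef1a2. The alternative that removes a trend with length does use the deposited length, and there its log2 fold change was -0.70 against -0.65. The level of Eef1a2 transcript was 0.0131 of that of Eef1a1 in WT and 0.00943 in KD on TPM, with both numbers bound to the same long length.

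Start sites were examined because elongation factor mRNAs are known for pyrimidine tracts at their start. The RefSeq table of promoters (GRCm38.p6) held 7 of the 9 genes and not Eef1g or Eef1d. The window of 20 bases before and 10 bases from each annotated start was searched on the sense strand for a C followed by 4 or more C or T. Of 32851 promoters, 37.6% held such a tract. That is a share of promoters and not of genes, and a gene can have several. Of the 7 genes 3 held a tract in the window of an annotated start, namely Eef1a1, Eef1a2 and Eef2k. Eef2k has 3 annotated starts, and only the window of start 3 held a tract, with none at starts 1 and 2. The count of genes is therefore not set against the share of promoters. A tract in the window need not be where the mRNA begins. The windows of 4 members that were lower in KD and of Eef2 are given 5′ to 3′, with tracts in capitals.

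Eef1a1 (chr9:78481715-78481744, minus strand): cgtgtgctggctccgCCCTCTTCCCgaggg

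Eef1a2 (chr2:181157006-181157035, minus strand): gtttttCTCTCCTggtctgcgttctcgctc

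Eef1b2 (chr1:63176811-63176840, plus strand): cgacttggacctgcagttccgccggaagta

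Tpt1 (chr14:75845236-75845265, plus strand): ttcacgtcaccgctgacgacagttccgggg

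Eef2 (chr10:81176611-81176640, plus strand): cgacctataaaaggccgggcgttgacgtca

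The tract of Eef1a1 runs over its annotated start and that of Eef1a2 lies before it. That of Eef2k lies at the far upstream end of the window of start 3. The windows of Eef1b2, Tpt1 and Eef2 held none. An annotated start may differ from the one used in these cells, so a window without a tract says only that these letters are not there.

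Genes that work beside the elongation factors were counted from 7 lists of 50 genes, of which 49 were tested. Together 8 were lower and 5 higher past the threshold, and 36 did not pass, beside 11.9% and 12% of all genes. With the replicate block 12 were lower and 7 higher, where 18.1% of all genes were lower and 36.6% passed in either direction. The number lower was 2 to 12 over the alternatives. The same shares of all genes stand beside the counts of each list that follows. Their median log2 fold change was 0.02.

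**Figure D4:**
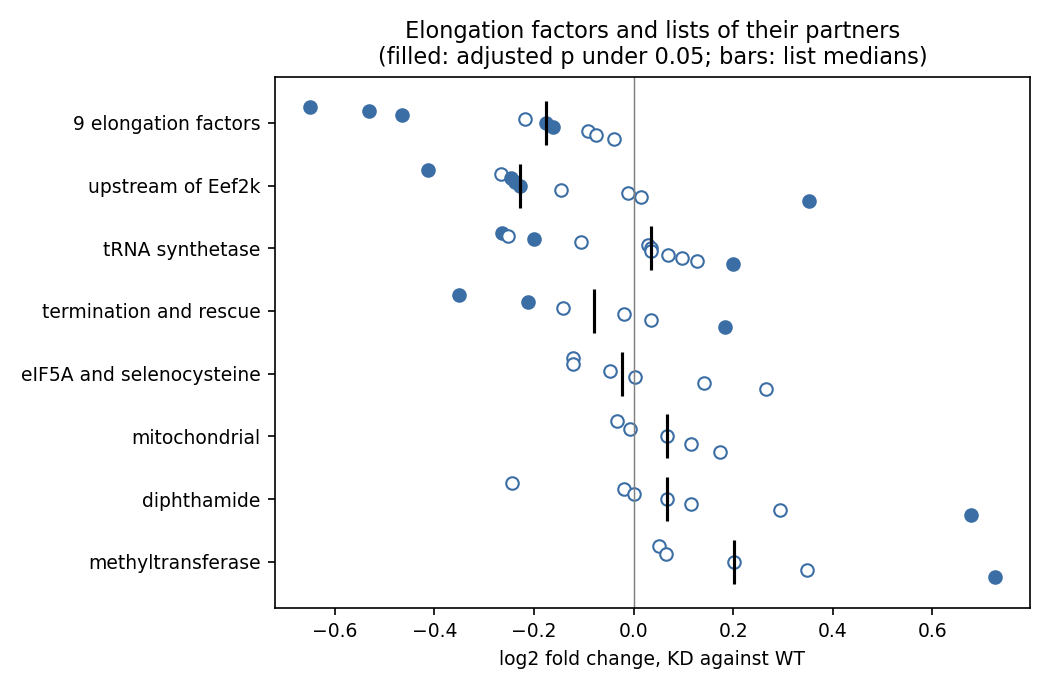
Log2 fold changes of KD against WT (horizontal axis) for the 9 elongation factor transcripts and for each of the 7 partner lists (rows), 1 point per gene, filled where the adjusted p was under 0.05, with a bar at the median of the row. The median is lowest for the genes upstream of Eef2k at -0.23, and that of the 5 methyltransferases was 0.20.

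Eef2k encodes a kinase that needs calmodulin and is under the control of AMPK and of the mTORC1 and ribosomal S6 kinases. Upstream of it, 4 of 9 genes were lower and 1 was higher (median -0.23), beside 11.9% and 12% of all genes. The block raised the number lower to 6, and it also raised the share of all genes lower, to 18.1%. It added Rps6ka1, a kinase of the ribosomal S6 kinase family (-0.27, adjusted p = 0.0591 without the block and 0.0229 with it). Rptor, the mTORC1 scaffold, was the other gene added (-0.14, adjusted p = 0.0796 and 0.0325). Calm3, a calmodulin gene, had 1318, 1327 and 1287 CPM in WT and 988, 980 and 988 CPM in KD. Its log2 fold change was -0.41 (SE 0.04, adjusted p = 4.0e-04). Calm2, which also encodes calmodulin, was at 0.02 (adjusted p = 0.837). The AMPK catalytic subunit genes Prkaa1 (-0.24, adjusted p = 0.0492) and Prkaa2 (-0.23, adjusted p = 0.0276), named because the count is small, fell slightly. Rps6kb1, the gene of S6 kinase 1, rose from 59.8 ± 1.07 to 76.4 ± 1.48 CPM (0.35, SE 0.05, adjusted p = 0.0019), and Mtor was at -0.01 (adjusted p = 0.885).

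In the list of tRNA synthetases of the complex that holds the Eef1e1 product, with valyl-tRNA synthetase, 2 of 11 were lower and 1 was higher (median 0.04), or 3 and 2 with the block. Iars, the isoleucine enzyme, was at 128 ± 6.89 CPM in WT and decreased to 106 ± 1.90 CPM (-0.26, SE 0.05, adjusted p = 0.00897). Qars, for glutamine, decreased from 62.5 ± 0.753 to 54.4 ± 0.865 CPM (-0.20, SE 0.05, adjusted p = 0.0196). Kars, for lysine, rose from 120.4 ± 1.6 to 138 ± 6.34 CPM (0.20, SE 0.05, adjusted p = 0.0211). The scaffold genes Aimp1 (0.04) and Aimp2 (0.10) did not pass, and Vars, whose product binds eEF1, was at 0.07 (adjusted p = 0.342) with some fractional counts.

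Among 6 genes of termination, recycling and rescue, Pelo (-0.35, SE 0.11, adjusted p = 0.0454) and Gspt2 (-0.21, SE 0.07, adjusted p = 0.0493) were lower and Abce1 (0.18, SE 0.06, adjusted p = 0.0436) was higher, all near the threshold. Pelo rescues stalled ribosomes, Gspt2 encodes a release factor eRF3, and Abce1 splits ribosomes for recycling. The list had a median of -0.08, and with the block 3 were lower.

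Modifiers of the elongation factors gave the highest single values. Eef1akmt2, a methyltransferase gene for eEF1A, had 8.98, 7.84 and 8.16 CPM in WT and 14.8, 12.2 and 14.3 CPM in KD. All KD libraries were higher, and the log2 fold change was 0.73 (SE 0.12, adjusted p = 0.00361). It was the 1 of 5 tested methyltransferases to pass, with Eef1akmt3 removed by the filter. The median of that list, 0.20, was 0.07 without WT replicate 1, 0.10 without WT replicate 3, 0.36 without WT replicate 2 and 0.06 with a filter at 5 CPM. Dph6, which completes diphthamide, the modified histidine of eEF2, rose from 11.6 ± 0.99 to 18.6 ± 0.457 CPM (0.68, SE 0.09, adjusted p = 0.00202), the 1 of 7 diphthamide genes to pass. Its count was fractional in KD replicate 1.

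No gene passed among the 6 of the eIF5A and selenocysteine list (median -0.02) or the 5 mitochondrial elongation factors (median 0.07) in edgeR, DESeq2 or limma-voom. At an unadjusted p under 0.05 in edgeR there were 2 in the first list and 0 in the second. With the replicate block 1 passed, Secisbp2, a factor that reads selenocysteine signals (0.27, adjusted p = 0.0765 without the block and 0.0319 with it). Eif5a, a cytosolic elongation factor that carries hypusine, averaged 451 ± 25.6 CPM in WT libraries and 415 ± 5.77 CPM in KD libraries (-0.12, adjusted p = 0.113), with fractional counts in all libraries. Tufm, the mitochondrial counterpart of eEF1A, was at -0.03 (adjusted p = 0.67).

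Finally, the 5 genes nearest to Eef1g in pattern were found by the distance of centred log2 CPM over the 6 libraries, among genes averaging 50 CPM or more, leaving out the members and targets of the study. They were Dpysl4 (distance 0.061), Mgat4b (0.090), Chmp3 (0.092), Ftl1 (0.096) and Cdo1 (0.104). Their log2 fold changes lay between -0.56 for Ftl1 and -0.49 for Cdo1, which the likeness to Eef1g fixes. None of these is a gene of the partner lists.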

How the data were processed

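The authors sequenced mRNA libraries on the DNBSEQ platform, and the deposited table gives estimated counts, TPM and FPKM per gene and library. Per the labels, the submitters' processing notes name HISAT2 2.2.1, Bowtie2 2.4.5 and RSEM 1.3.1 and the build GRCm38, and the annotation is not given in the sources used here. Columns named Ctrl were matched by number to the libraries titled WT. The authors' 6 columns of group averages were not used. FPKM values deposited by the authors served only to derive effective lengths, and deposited TPM values to compare levels, to form ratios between subunits and in an alternative test.

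Rounded estimated counts entered edgeR 4.0.16, run in R 4.3.3 (TMM scaling, filterByExpr with a minimum count of 10, unpaired quasi-likelihood test), with Benjamini-Hochberg adjustment over the 13669 genes and a threshold of 0.05. SE was derived from the F statistic, as the size of the log2 fold change over the root of F. The scripts were tested on simulated data. Ratios to Eef1g used limma 3.58.1 on log2 CPM (prior count 2). Between 89.3% and 89.9% of values in a library were whole numbers. Replicates differed by a chi-square of 3.90 to 7.49 per degree of freedom, more than counting noise alone gives. Each was counted as a sample, but this value cannot show that the cultures or embryos behind the libraries were separate. Deviations from group means correlated at 0.35, 0.32 and 0.18 for libraries of the same number and at most -0.02 otherwise. Centring on group means makes these values tend to cancel, so negative values beside positive ones are partly forced. From the positive values for the same number, the numbers were taken to pair libraries, as a working choice. The main test did not use this pairing, and the replicate block, which does, is given as an alternative. The variation between replicates estimated by edgeR was 7.69% in the main test and 4.71% with the block. The series text mentions batches of sequencing, without tying a replicate number to one.

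Named genes were all members, partner genes past the threshold with the largest changes (up to 3 per list), Ybx1 and the 5 genes nearest to Eef1g. The 9 members and the lists were chosen with earlier results of these data known. Some genes of the lists and some target transcripts of the study are not reported here. Alternatives covered other scalings and filters, DESeq2 1.42.0, limma-voom, limma on log2(TPM + 1), a trend with length removed by loess, the replicate block, an adjusted p of 0.01 and leaving out each library.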

Additional observations from a re-analysis of the deposited data

How the results depend on the processing

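Eef1g (-0.55 to -0.48 on the log2 scale), Eef1a2 (-0.70 to -0.59) and Eef1b2 (-0.50 to -0.41) passed as lower in each of the 17 alternatives. The number of the 9 members lower was 5, 3 on log2(TPM + 1) and 3 at an adjusted p of 0.01, and 4 to 6 without one library. It was 6 with upper quartile scaling, with a filter at 5 CPM and with the replicate block, each of which added Eef1e1, and the block changed no other call of a member. Tpt1 also lost its call when the trend with length was removed (-0.12, adjusted p = 0.0725). On TPM the log2 fold changes of Eef1d (0.011) and Eef2k (0.014) changed sign, and that of Eef2k lay between -0.13 and 0.074 without one library (0.074 without WT replicate 3 and 0.05 without KD replicate 1). Neither gene passed under any alternative.

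Over all genes, 1646 were higher and 1631 lower. The replicate block gave 2539 and 2470, an adjusted p of 0.01 gave 629 and 634, log2(TPM + 1) gave 1072 lower, and leaving out one library gave 779 to 1612 higher and 797 to 1583 lower, the fewest without WT replicate 2. The higher share of calls was 50.2%, 57.9% with total count scaling and 65.9% on TPM (43.0% with upper quartile scaling), which moved the median of all genes by at most 0.05. Partner genes numbered 5 higher and 8 lower. More were lower with the replicate block (12) and with upper quartile scaling (12). Fewer were lower with total count scaling (5), without a filter (5), with DESeq2 (4), on TPM (3) and at an adjusted p of 0.01 (2, with 3 higher), and 2 to 7 were lower and 3 to 4 higher without one library. List medians moved, those of the diphthamide genes from 0.015 to 0.12, of the mitochondrial factors from 0.0087 to 0.12, of the methyltransferases from 0.06 to 0.36 and of the genes upstream of Eef2k from -0.27 to -0.16, and that of the eIF5A and selenocysteine list changed sign (-0.04 to 0.03). The number of eEF1 subunits that differed from Eef1g was 2, and 2 to 3 under the alternatives. The order of levels per GENCODE length was added after seeing the data. The cause of these differences was not tested. SEs of the members were 0.04 to 0.11, and the part of depth in them was not tested.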
